A study of Homo sapiens with 2 samples.

Results

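The genes described here make, bind and break down hyaluronan, measured in ACHN cells, an established human kidney cancer line, with and without depletion of Kindlin-2. They were taken as 9 listed genes: the synthases HAS1, HAS2 and HAS3, the secreted binder TNFAIP6, the receptors CD44 and HMMR, and the hyaluronidases HYAL1, HYAL2 and HYAL3. A gene was measured when a transcript cluster (the group of probes that the array assigns to a locus) carried its symbol alone in the platform annotation. This held for 6 of the 9, out of 18417 genes measured in all, and each of the 6 had 1 cluster. HAS1, HYAL1 and HYAL3 had no such cluster and were not analysed here. The members were chosen by their function and with the difference between these 2 arrays in view, the large one of TNFAIP6 included, so their differences are a description and carry no test.

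One group was ACHN cells transfected with Kindlin-2 shRNA and the other ACHN cells transfected with control shRNA. Both were grown in MEM with serum and G418, a drug that selects transfected cells, and the labels call the line clear cell renal cell carcinoma. Total RNA of each was hybridised to an Affymetrix Human Gene 1.0 ST array, 1 array per group (n = 1 each). There is therefore no replicate, no p-value and no overlap of groups to judge, and anything else that differed between the 2 cultures or hybridisations cannot be told apart from the shRNA. The sources used here do not say whether the transfected cells were a clone or a pool, or how many hairpins were used.

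Hyaluronan is a long unbranched sugar polymer that is spun out through the plasma membrane by the HAS enzymes from UDP-glucuronic acid and UDP-N-acetylglucosamine. It fills the space between cells, where link-module proteins such as TNFAIP6 (also called TSG-6) and versican bind it, and CD44 holds it at the cell surface. Hyaluronidases cut it into shorter chains, and in the kidney it is known chiefly from the interstitium of the medulla.

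The 250 bases before the start of TNFAIP6 and of HMMR are shown because these were the 2 members that differed most between the arrays. They were taken from RefSeq promoters on build GRCh38.p14. The window of TNFAIP6 is chr2:151357342-151357591 and that of HMMR chr5:163460382-163460631, both on the plus strand. Capitals in the TNFAIP6 window mark an AP-1 motif, the site of FOS and JUN factors. Capitals in the HMMR window mark NF-Y boxes and CHR motifs, elements known from promoters of genes used in mitosis.
TNFAIP6: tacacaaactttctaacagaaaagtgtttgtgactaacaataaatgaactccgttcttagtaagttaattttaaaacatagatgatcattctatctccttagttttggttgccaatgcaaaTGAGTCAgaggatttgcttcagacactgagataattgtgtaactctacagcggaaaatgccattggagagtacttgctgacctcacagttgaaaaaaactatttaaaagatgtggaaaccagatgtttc
HMMR: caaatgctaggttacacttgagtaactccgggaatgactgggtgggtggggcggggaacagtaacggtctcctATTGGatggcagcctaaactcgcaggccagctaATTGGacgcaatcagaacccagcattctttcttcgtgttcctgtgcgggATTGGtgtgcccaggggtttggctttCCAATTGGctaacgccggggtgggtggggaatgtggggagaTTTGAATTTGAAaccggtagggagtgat

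The motifs were chosen with these sequences in view and were searched on both strands, as TGANTCA for AP-1, CCAAT for the NF-Y box, TTTGAA for the CHR motif, TATAAA for the TATA box, and NF-kB by its usual consensus. TNFAIP6 had 1 AP-1 match, which began 129 bases before the start, and 2 NF-Y boxes. All shares of promoters count 1 promoter per gene, the first listed. An AP-1 match stood in 6.60% of the 27305 promoters so taken. It stood in 3.82% of the 9501 promoters of genes that passed the filter on dim values described below. HMMR had 2 CHR matches, which began 28 and 22 bases before the start. At least 2 CHR matches stood in 1.77% of all promoters and in 0.621% of those of genes past the filter. HMMR also had 5 NF-Y boxes, of which the last 2 overlap on opposite strands. At least 1 NF-Y box stood in 33.0% of all promoters. At least 2 stood in 10.0% of all promoters and in 12.7% of those of genes past the filter. HAS1 had 1 CHR match, and HAS3, CD44, HYAL1, HYAL2 and HYAL3 had no match to any of the 5 motifs. HYAL3 had 2 promoters listed, of which only the first was searched. HAS2 was not in the table. A match describes the letters of the window and no match says nothing of the factor.

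**Figure D1:**
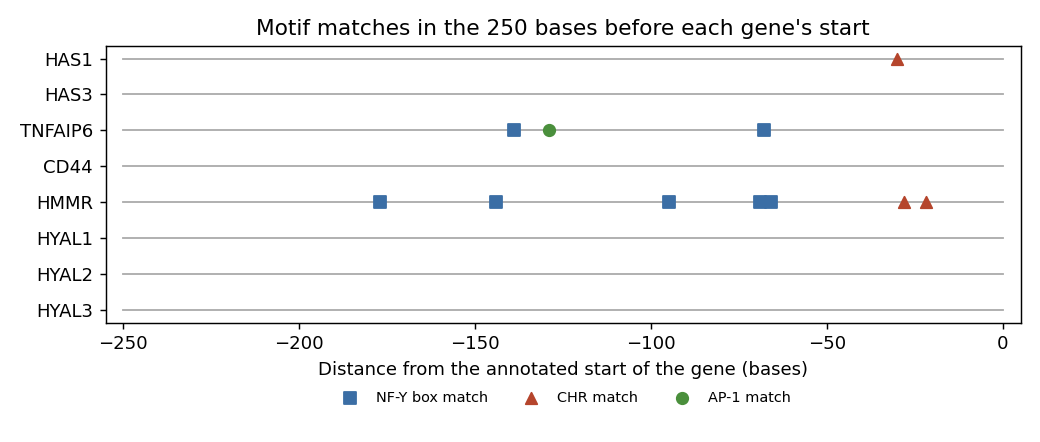
Positions of motif matches in the 250 bases before the start of 8 hyaluronan genes, with the distance from the start in bases on the x axis and a gene per line. Each marker stands at the first base of a match: HMMR has 5 NF-Y boxes and 2 CHR matches, TNFAIP6 has 2 NF-Y boxes and the sole AP-1 match, and 5 genes have none. Only the first promoter listed for each gene was searched.

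FERMT2, which encodes Kindlin-2, had a log2 value of 8.26 in the Kindlin-2 shRNA array and 9.37 in the control array, a difference of -1.11 in the direction of the label. The median log2 value of all transcript clusters was 6.53 in the Kindlin-2 shRNA array and 6.51 in the control array. The table median over both arrays, 6.52, served as a filter on dim values: a gene passed when the higher of its 2 values reached it, and 11822 genes did. Of renal and epithelial markers, 8 of 10 measured passed, PAX8 at 11.29 in the Kindlin-2 shRNA array and 11.43 in the control array among them, whereas the proximal tubule genes LRP2 and CUBN were below it in both arrays. The median difference of the 8 was -0.49, and that of all 10 measured was -0.42. Of the 8, 7 were below 0 and 1 was above it, the epithelial marker EPCAM at 0.25. Of the 11822 genes past the filter, 6285 were below 0 and 5489 above it. CDH1, the gene of E-cadherin, was 3.90-fold lower and the renal transcription factor PAX2 1.58-fold lower (-0.66, or -0.55 less the median of its 50 nearest genes, under 1.5-fold). The kidney cadherin CDH16, 1.78-fold lower, passed only through the control array. Their part in the results below was not tested. Of leukocyte markers 0 of 5 passed, of endothelial markers 1 of 6, of mesothelial markers 1 of 3, and of fibroblast and smooth muscle markers 6 of 10 with a median difference of -0.0034. Of these last 6, PDGFRB and COL1A2 passed only through the control array and COL3A1 only through the Kindlin-2 shRNA array. The 6 went both ways: THY1 and COL1A1 each differed by 0.17 and COL3A1 by 0.02, while COL1A2 differed by -0.02, smooth muscle actin (ACTA2) was 1.70-fold lower and the growth factor receptor PDGFRB 1.71-fold lower. Less the medians of their chromosomes, COL1A2 was at 0.20 and COL3A1 at -0.02, so their signs turned.

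Among the 6 measured members, TNFAIP6 and HMMR were at least 2-fold higher in the Kindlin-2 shRNA array and none was at least 2-fold lower. Over all 18417 genes measured, 1.01% passed the 2-fold line on the higher side and 0.896% on the lower side. Lowering the threshold to 1.5-fold added no member (3.77% of all genes measured were at least 1.5-fold higher and 3.81% lower), although HAS3 came close to it on the lower side. In all, 4 members were above 0 and 2 below, and their median difference was 0.33 on the log2 scale, against -0.01 over all genes measured. Of all genes measured, 8604 were above 0 and 9581 below. All measured members but HAS2 passed the filter, and each of these 5 was above it in both arrays. Since the members were listed with these differences known, nothing is read from the counts.

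**Figure D2:**
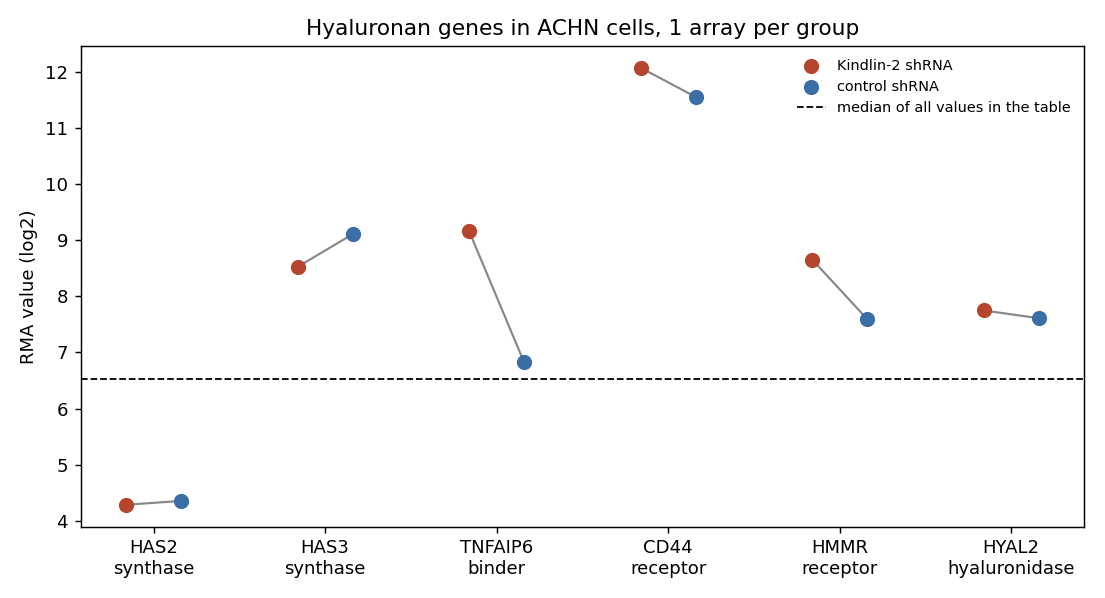
RMA values (log2) of the 6 measured hyaluronan genes, with the Kindlin-2 shRNA array on the left and the control array on the right of each pair, 1 array per group and so no error bars; the dashed line is the median of all values, 6.52. TNFAIP6 is at 9.16 in the Kindlin-2 shRNA array and 6.83 in the control array, HAS3 lies lower in the Kindlin-2 shRNA array, and HAS2 lies below the line in both.

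The synthases start the pathway, and neither of the measured pair was higher in the Kindlin-2 shRNA array. HAS3, the synthase known for shorter hyaluronan chains, had a log2 value of 8.53 in the Kindlin-2 shRNA array and 9.11 in the control array. This was 66.8% of the control level, a difference of -0.58 or 1.496-fold lower, and 627 of the 11822 genes past the filter had a larger decrease. The SD of the difference over the 1182 genes of like mean value was 0.42, a spread that holds array noise and real differences together. HAS2, the synthase that mouse embryos need to develop, had 4.29 in the Kindlin-2 shRNA array and 4.36 in the control array. Its difference was -0.07, and at such values, more than 2 log2 units below the table median in both arrays, the data cannot separate an absent transcript from a dim one. With HAS1 not analysed, HAS3 was the only synthase with a value above the filter.

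TNFAIP6 stood furthest from 0. It encodes a secreted protein of inflamed and remodelling tissue that binds hyaluronan through its link module and moves heavy chains of inter-alpha-inhibitor onto it. Its log2 value was 9.16 in the Kindlin-2 shRNA array and 6.83 in the control array, where it lay 0.30 above the filter. The difference of 2.33, or 5.03-fold higher, was exceeded by 8 of the 11822 genes past the filter. Among the 1182 genes of like mean value the SD of the difference was 0.39, and 1 of them had a larger difference in either direction.

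The receptors were both higher in the Kindlin-2 shRNA array, by unequal amounts. CD44, the main surface receptor of hyaluronan and a linker to the actin cytoskeleton, had a log2 value of 12.07 in the Kindlin-2 shRNA array and 11.55 in the control array. CD44 was thus 1.43-fold higher, a difference of 0.52, and 755 genes past the filter had a larger increase. The platform annotation ties its cluster to 8 RefSeq mRNAs, and 1 value summarises the cluster. It does not tell the standard and variant isoforms of CD44 apart. HMMR, known as RHAMM, binds hyaluronan at the cell surface and is also a spindle protein made mostly in dividing cells. Its log2 value was 8.66 in the Kindlin-2 shRNA array and 7.60 in the control array. The difference of 1.06, or 2.08-fold higher, was exceeded by 136 genes past the filter and, in either direction, by 26 of the 1182 genes of like mean value. HMMR lay close to the 2-fold line, at 1.00 when the median of its autosome was subtracted.

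HYAL2, a hyaluronidase anchored to the cell membrane, had the smallest difference of the 5 members past the filter. Its log2 value was 7.75 in the Kindlin-2 shRNA array and 7.61 in the control array. The difference of 0.14, or 1.10-fold higher, was smaller in size than that of 721 of the 1182 genes of like mean value, whose SD was 0.40. HYAL1, a lysosomal hyaluronidase, and HYAL3 lie close to HYAL2 on chromosome 3 in RefSeq. With neither analysed, the value of HYAL2 stands for that gene only.

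**Figure D3:**
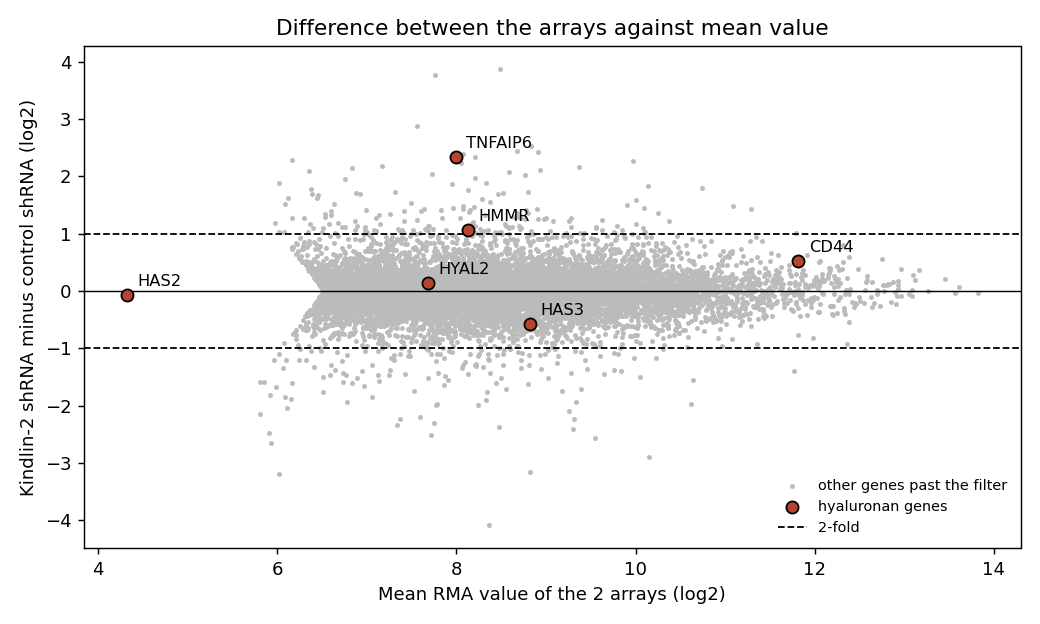
Difference between the arrays (Kindlin-2 shRNA minus control shRNA, log2) against the mean value of the 2 arrays (log2) for the genes past the filter in grey and the 6 measured hyaluronan genes in red, with dashed lines at 2-fold. TNFAIP6 (2.33) and HMMR (1.06) lie above the upper line, HAS3 (-0.58) is the lowest of the members, and HAS2 lies left of the filter.

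Other genes of the pathway were read from 8 lists, over members past the filter. Of those 11822 genes, 5.10% were at least 1.5-fold higher and 5.23% lower, 1.41% were at least 2-fold higher and 1.26% lower, and their median difference was -0.02. Those above 0 numbered 5489 and those below 0 numbered 6285. Enzymes that supply the sugar nucleotides differed little as a group, with a median of 0.09 over 6 genes. UAP1, which makes UDP-N-acetylglucosamine, was 1.60-fold higher (9.04 in the Kindlin-2 shRNA array and 8.36 in the control array) and was the sole member past 1.5-fold. UGDH, which makes UDP-glucuronic acid, differed by -0.24.

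Secreted binders of hyaluronan went both ways, with 2 of 11 at least 1.5-fold higher, 1 at least 1.5-fold lower and a median of 0.03. Pentraxin 3 (PTX3), a partner of TNFAIP6 in the hyaluronan matrix around the mouse egg, was 2.86-fold higher, with a log2 value of 7.40 in the Kindlin-2 shRNA array and 5.88 in the control array. The proteoglycan versican (VCAN) was 1.54-fold higher, at 12.22 in the Kindlin-2 shRNA array and 11.60 in the control array, but its difference of 0.62 was 0.57 less the median of its chromosome, under 1.5-fold. ITIH5, of the inter-alpha-inhibitor heavy chain family, was 2.96-fold lower, at 6.35 in the Kindlin-2 shRNA array and 7.92 in the control array. PTX3 and NCAN, the latter with a difference of 0.24, passed the filter only through the Kindlin-2 shRNA array. ITIH5 passed only through the control array. The chains that TNFAIP6 is known to transfer, ITIH1, ITIH2 and ITIH3, were below the filter in both arrays, with differences of 0.13, -0.06 and 0.17. AMBP, whose product holds these chains before transfer, differed by -0.54 (-0.23 less the median of its chromosome, 9). The cartilage link protein HAPLN1 was also below the filter, at 4.23 in the Kindlin-2 shRNA array and 3.48 in the control array.

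Of the other receptors, LAYN (layilin) and TLR4 passed the filter. LAYN differed by -0.25, and TLR4, an innate immune receptor reported to sense hyaluronan fragments, was 1.56-fold lower, at 6.94 in the Kindlin-2 shRNA array and 7.59 in the control array. The median difference of chromosome 9, where TLR4 lies, was -0.31, and less that median TLR4 differed by -0.33, under 1.5-fold. TLR2, of the same family, was below the filter and differed by 0.56. The endothelial receptors LYVE1 and STAB2 were below the filter in both arrays. Among other turnover genes, 3 of 6 passed and none reached 1.5-fold: the cell surface protein CEMIP2 differed by -0.10, and the lysosomal exoglycosidases HEXA and GUSB by 0.26 and -0.01. Less the medians of their chromosomes, 9 and 7, CEMIP2 and GUSB were both at 0.21, so their sign turned. CEMIP, which is needed for hyaluronan breakdown in fibroblasts, was below the filter, at 5.67 in the Kindlin-2 shRNA array and 6.37 in the control array.

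The linkers, sheddases and other ligands of CD44 had a median of -0.04 over 11 genes, and none reached 1.5-fold, while CD44 itself differed by 0.52. Of the 11, ANK1 (-0.28) passed the filter only through the control array. The linkers MSN (moesin) and RDX (radixin), which tie CD44 to actin, differed by -0.11 and -0.01 (RDX 0.01 less the median of its chromosome), and NF2 (merlin), their relative, by -0.36. Of the proteases that cut CD44 at the surface, MMP14 differed by 0.29, ADAM10 by -0.27 and ADAM17 by 0.08 (-0.07 less the median of its 50 nearest genes). Osteopontin (SPP1), another ligand of CD44, had 13.03 in the Kindlin-2 shRNA array and 13.07 in the control array. Splicing factors known for the variant exons of CD44 had a median of 0.19 over 4 genes, all above 0 and none at 1.5-fold. ESRP2, an epithelial splicing factor of this list, was below the filter in both arrays.

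HMMR was set beside 22 genes of the mitotic spindle, all of which passed the filter, KIF15 only through the Kindlin-2 shRNA array. That mitosis genes were higher in the Kindlin-2 shRNA array was known when this list was written. In it 14 genes were at least 1.5-fold higher, 7 of them at least 2-fold, none was at least 1.5-fold lower, and the median was 0.82, against 1.06 for HMMR. The 2 genes below 0 were DYNLL1 and the transcription factor FOXM1. FOXM1 differed by -0.15 (0.07 less the median of its chromosome). The kinetochore gene NUF2 was 2.56-fold higher, the kinase AURKA 2.41-fold, its activator TPX2 2.26-fold and the kinase CDK1 2.20-fold. AURKA and TPX2 lie on chromosome 20, whose genes had a median difference of 0.26. Less that median AURKA was at 1.01 and TPX2 at 0.91, the second of these under 2-fold. TPX2 is also a known binding partner of HMMR. Of further partners, named after their values were seen, FAM83D, which binds HMMR at the spindle, was 1.70-fold higher, at 8.67 in the Kindlin-2 shRNA array and 7.90 in the control array. FAM83D also lies on chromosome 20 and was at 0.51 less its median, under 1.5-fold. The dynein light chain DYNLL1 differed by -0.21 (0.11 less the median of its 50 nearest genes), BRCA1 by 0.55 and BARD1 by 0.24. Of the 18 genes of this list with a promoter in the table, 8 had a CHR match, against 13.6% of all promoters and 8.0% of those of genes past the filter. An NF-Y box stood in 10 of the 18, against 33.0% of all promoters and 34.5% of those of genes past the filter. Both motifs were already known from promoters of mitosis genes and were chosen with the HMMR window in view. Nothing is therefore read from these shares.

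TNFAIP6 was set beside 22 genes known to be induced by interleukin-1 and TNF, of which 21 were measured and 15 passed the filter, PTX3 and TNFAIP3 only through the Kindlin-2 shRNA array and TNFAIP8 only through the control array. These genes differed in both directions, with 4 at least 2-fold higher, 1 at least 2-fold lower and a median of 0.22. The chemokine CXCL8 was 5.36-fold higher, the cytokine IL6 3.22-fold, PTX3 2.86-fold and the NF-kB inhibitor TNFAIP3 2.27-fold. Among those lower, the chemokine CCL2 was 3.74-fold lower, at 7.38 in the Kindlin-2 shRNA array and 9.28 in the control array, and TNFAIP2 was 1.75-fold lower. The inducers themselves, TNF, IL1A and IL1B, were below the filter in both arrays, with differences of -0.02 (TNF 0.02 less the median of its chromosome), 0.21 and -0.03. Of the 20 genes with a promoter in the table, 3 had an AP-1 match, as TNFAIP6 does, against 6.60% of all promoters and 3.82% of those of genes past the filter. An NF-kB match, which the TNFAIP6 window lacks, stood in 10 of the 20, against 9.57% of all promoters and 12.1% of those of genes past the filter. The genes were listed for their known induction and the motifs were chosen with the TNFAIP6 window in view. Nothing is therefore read from these shares either.

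**Figure D4:**
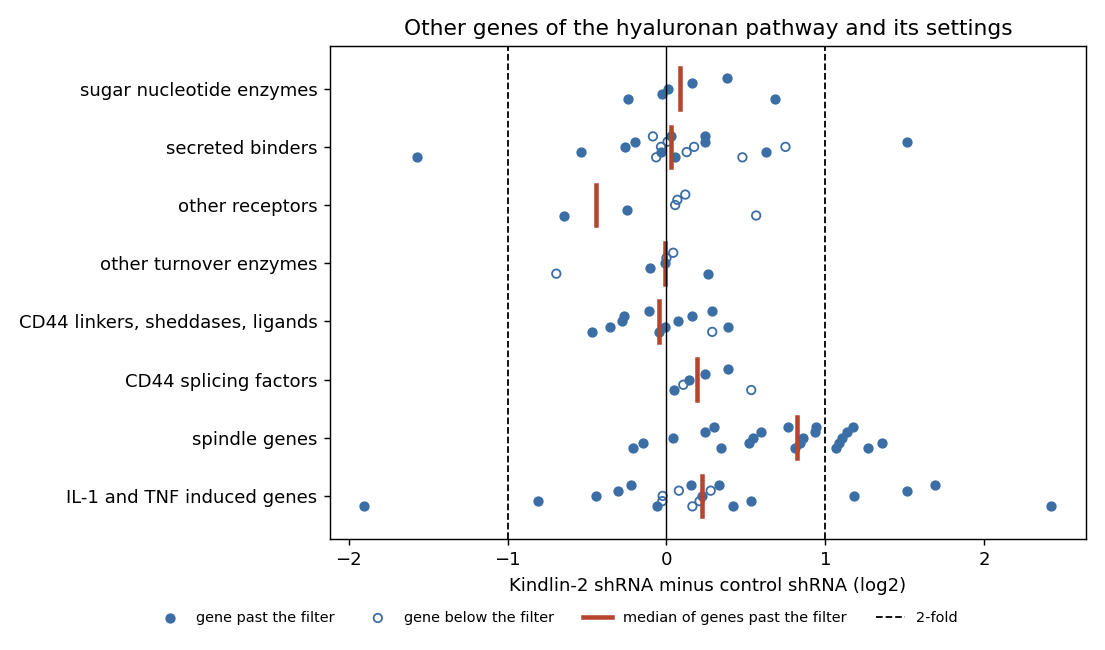
Difference between the arrays (Kindlin-2 shRNA minus control shRNA, log2) on the x axis for genes of 8 lists, 1 per line; filled points passed the filter, open points did not, the red bar is the median of those that passed, and dashed lines mark 2-fold. The line of spindle genes, which also holds other genes of cell division, lies mostly to the right, with a median of 0.82. The line of secreted binders, which also holds C1QBP and HABP4 (median 0.03), and genes induced by interleukin-1 and TNF (median 0.22) lie on both sides.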

How the data were processed

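Per the submitters' processing notes, the authors ran Affymetrix Expression Console 1.4.1 and its RMA method on the 2 arrays, and the deposited values of 33297 transcript clusters are on the log2 scale, from 2.13 to 14.04. The sources used here do not give the library file or the set of arrays normalised together. The number of arrays limits the precision. Symbols came from GEO's platform annotation, updated through Entrez IDs to RefSeq: 19460 clusters had 1 symbol (19429 matched), 1754 several and 12083 none. The cluster with the highest mean stood for a gene. Differences are Kindlin-2 shRNA minus control shRNA values, folds are 2 to the power of their size, and no test was possible. Genes of like mean value are those in the same of 10 bins of equal size. The members and lists were chosen with earlier results of these data known. Named genes were the members, FERMT2 and, per list, up to 4 genes per direction at 1.5-fold or more; exceptions are marked or are given as values of pathway members. Counting was tested on simulated data. The tools were Python 3.11.15, pandas 2.3.3 and statsmodels 0.14.6 (loess).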

Additional observations from a re-analysis of the deposited data

How the results depend on the processing

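Each member difference was recomputed under 5 alternatives that could move it (loess between the arrays, repeated quantile normalization, subtraction of the median of all clusters, and subtraction of the median of its autosome or of its 50 nearest genes). All 30 values of the members stayed within 0.1 of the reported one. TNFAIP6 lay between 2.28 and 2.36, HMMR between 1.00 and 1.09, and CD44 between 0.48 and 0.54. HAS3 lay between -0.58 and -0.51, HYAL2 between 0.10 and 0.23, and HAS2 between -0.08 and -0.0046. FERMT2, which is not a member and not among the 30, lay between -1.18 and -1.09. The mean over a gene's clusters could not move any of these genes, since each has 1 cluster. At 3-fold 1 member was higher, TNFAIP6. The median over the members was 0.52 when HAS2 was left out by either filter, since fewer genes entered it. With the autosome median subtracted, the list median was 0.22 for sugar nucleotide enzymes, -0.28 for other receptors and 0.21 for other turnover genes; with the median of the nearest genes subtracted it was -0.28 for other receptors and 0.20 for other turnover genes. These lists hold 2 to 6 genes, and the cause was not tested. Without the filter the median of other receptors was 0.062, the sign turned because 4 dim genes entered. No other list median moved by 0.1 or more. No paired analysis was possible because each group has 1 array, and no array could be left out. Background correction and probe summary could not be varied from summarised values, and without detection calls dim and absent cannot be separated.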

Other observations

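The 3 measured genes on either side of a member along its chromosome were read for each measured member. Around TNFAIP6 the 6 neighbours differed by -0.21 to 0.50, the highest being the telomere and replication timing gene RIF1, against 2.33 for TNFAIP6. Around HMMR they differed by -0.67 to 0.01, so that none shared its direction beyond 0.01. Around CD44 they reached 1.21 at FJX1, the third measured gene after it, which was 9.86 in the Kindlin-2 shRNA array and 8.65 in the control array, while the adjacent PDHX differed by 0.28 and SLC1A2, below the filter, by -0.29. Around HAS2 they differed by -0.32 to 0.81, the highest being MTBP, against -0.07 for HAS2.

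HAS3 and E-cadherin are close neighbours in RefSeq, with TANGO6 the only measured gene between them. CDH1 had a log2 value of 9.64 in the Kindlin-2 shRNA array and 11.60 in the control array, a difference of -1.96, whereas TANGO6 differed by 0.33 and CHTF8, on the other side of HAS3, by -0.06. Near HYAL2, the semaphorin SEMA3B was lower, at 5.76 in the Kindlin-2 shRNA array and 6.70 in the control array, a difference of -0.95. SEMA3B passed the filter only through the control array. IFRD2 and RASSF1, the nearest measured genes on either side of HYAL2, differed by 0.08 and -0.09. These neighbours were named after their values were seen.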
